A study of Mus musculus with 2 samples.

Results

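Neutrophils were examined in the kidney single-cell RNA sequencing (scRNA-seq) data of MRL-*lpr* mice, which consist of 1 library from old mice and 1 from young mice. They were selected on their own transcripts. Cell barcodes were kept if they held 200 or more genes and if mitochondrial transcripts were no more than 20% of their unique molecular identifiers (UMIs, which count captured transcripts). It was taken as a neutrophil with at least 5 UMIs each of *S100a8* and *S100a9* and at least 1 UMI of *Csf3r*, *Retnlg* or *Cxcr2*. Barcodes with a UMI of *Mcpt8* (basophils), *C1qa* (macrophages), *Cd3d* or *Cd3e* (T cells) were left out. This gave 314 of 21661 kept barcodes. They were 156 of 11429 in the young library (1.36%; exact Clopper-Pearson 95% interval 1.16 to 1.59%) and 158 of 10232 in the old library (1.54%; 1.31 to 1.80%).

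MRL-*lpr* mice are a lupus model in which the *lpr* allele disrupts *Fas*, a death receptor of lymphocytes. Both groups had this genotype, the labels give age only as old or young, and no *Fas*-intact control was analysed here. Counts of the 3′ end of *Fas* do not check the allele, and *Fas* had 32 UMIs in young and 59 UMIs in old neutrophils. Kidneys were pooled within each age, and the cells passed a density gradient, a magnetic kit that enriches innate lymphoid cells and a sort for live cells. These steps change which cells were sequenced, so the shares given here describe the libraries and not the organ. With 1 library per age there is no replicate, no p-value is given, and every interval covers counting error only. Age cannot be told apart from any other difference between these libraries.

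Neutrophils are short-lived granulocytes that leave the bone marrow with granules of proteases and antimicrobial proteins already made. They are drawn into inflamed tissue by chemokines, complement fragments and formyl peptides, and they bind immune complexes through Fc gamma receptors. In lupus nephritis they are known for releasing extracellular traps, for making IL-1β and chemokines, and for carrying a transcriptional signature of interferon. S100A8 and S100A9 form calprotectin, the main protein of neutrophil cytosol, and CSF3R is the receptor for the granulocyte growth factor G-CSF.

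The young neutrophil barcodes had a median of 2549 UMIs and 1061 genes, and the old ones had 4318 UMIs and 1295 genes. *S100a8* had a median of 56 UMIs per young and 184 UMIs per old neutrophil, and *S100a9* had 104.5 and 299. *Csf3r* was detected in 99.4% of young neutrophils and 98.1% of old ones, *Cxcr2*, the receptor for CXCL1 and CXCL2, in 88.5% and 87.3%, and *Retnlg* in 68.6% and 79.7%. These genes chose the cells, so their levels are a description. Near the minimum, 13 young and 4 old neutrophils had 5 to 9 UMIs of the scarcer S100 gene. Just below it, 23 young and 28 old kept barcodes had 1 to 4 UMIs of the scarcer gene, of which 12 and 15 carried a second marker. The requirement of no *Mcpt8*, *C1qa*, *Cd3d* or *Cd3e* removed 43 young and 52 old barcodes that met the other terms. The 2 libraries shared 41 barcode sequences, and no neutrophil was among them.

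A large part of these barcodes also carried transcripts of other cell types. Monocyte markers were above 2 UMIs in 37 young (23.7%) and 61 old (38.6%) neutrophil barcodes, and MHC class II genes were above 5 UMIs in 37 (23.7%) and 50 (31.6%). Macrophage markers were above 2 UMIs in 34 (21.8%) and 41 (25.9%), with *C1qa* at 0 by the rule. Markers of proximal tubule (PT) cells were above 50 UMIs in 15 (9.62%) and 11 (6.96%), and plasma cell markers above 10 UMIs in 16 (10.3%) and 8 (5.06%). Eosinophil markers were above 2 UMIs in 17 (10.9%) and 27 (17.1%), with *Epx* and *Ear6* at 0 in both libraries, and of the basophil markers *Mcpt8*, *Ms4a2*, *Gata2* and *Prss34* were at 0. The 65 young and 69 old barcodes over any such limit are called mixed-profile here, and the other 91 young and 89 old are called single-profile. The eosinophil list was not used for this split. The limits were set after the data were seen and are not scaled to depth. Deeper barcodes reach them more easily, so the difference in depth between the 2 profiles follows in part from the definition.

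**Figure D1:**
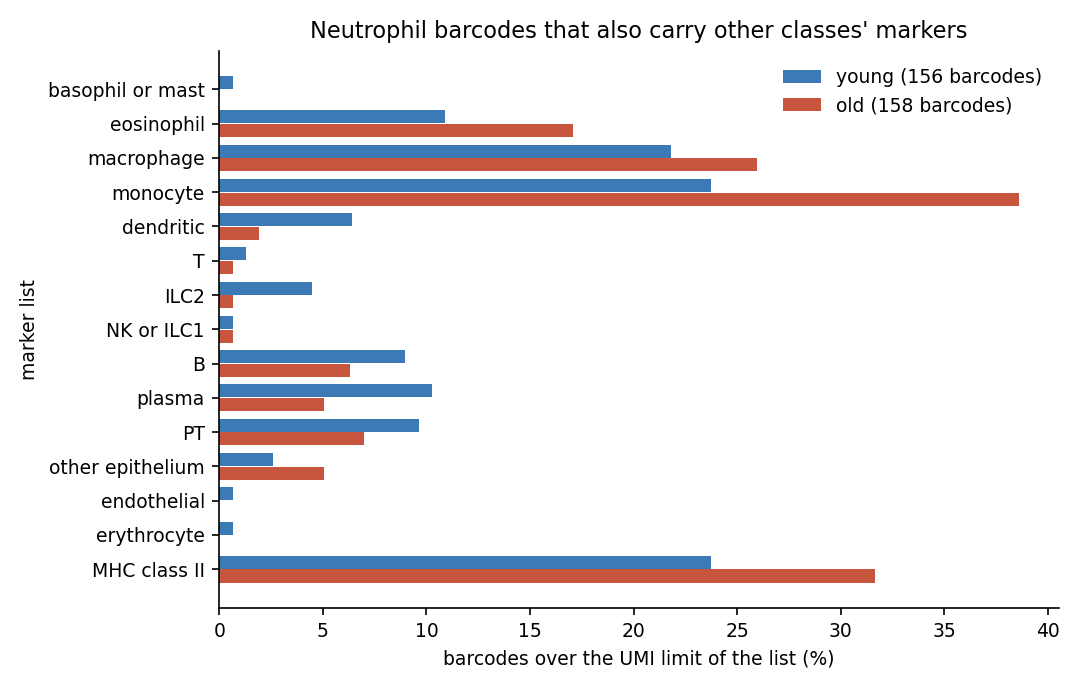
Percentage of neutrophil barcodes (x axis) whose summed UMIs in each marker list (y axis) exceed the limit of that list, for 156 young and 158 old barcodes. The limit is 2 UMIs for most lists, 5 for MHC class II, 10 for plasma cells and 50 for PT cells. The monocyte list was exceeded by 23.7% of young barcodes, as was MHC class II, and by 38.6% of old barcodes, the most of any list.

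Single-profile neutrophils were shallow, with a median of 2121 UMIs and 924 genes in the young and 3358 UMIs and 1118 genes in the old library. Mixed-profile barcodes had 8627 and 14308 UMIs, and held most of the transcripts: single-profile neutrophils gave 20.5% of young and 19.1% of old neutrophil UMIs. Scrublet, a doublet caller, called 9 young and 9 old neutrophil barcodes doublets, and all of them were mixed-profile. Doublets were kept, and whether the other mixed-profile barcodes hold more than 1 cell was not tested. In single-profile barcodes *S100a8* and *S100a9* made up 9.35% of young and 15.5% of old UMIs, against 3.14% and 4.75% over all neutrophils. The main results below are therefore given for all neutrophils and for single-profile neutrophils, and values of genes that set a limit are descriptions.

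**Figure D2:**
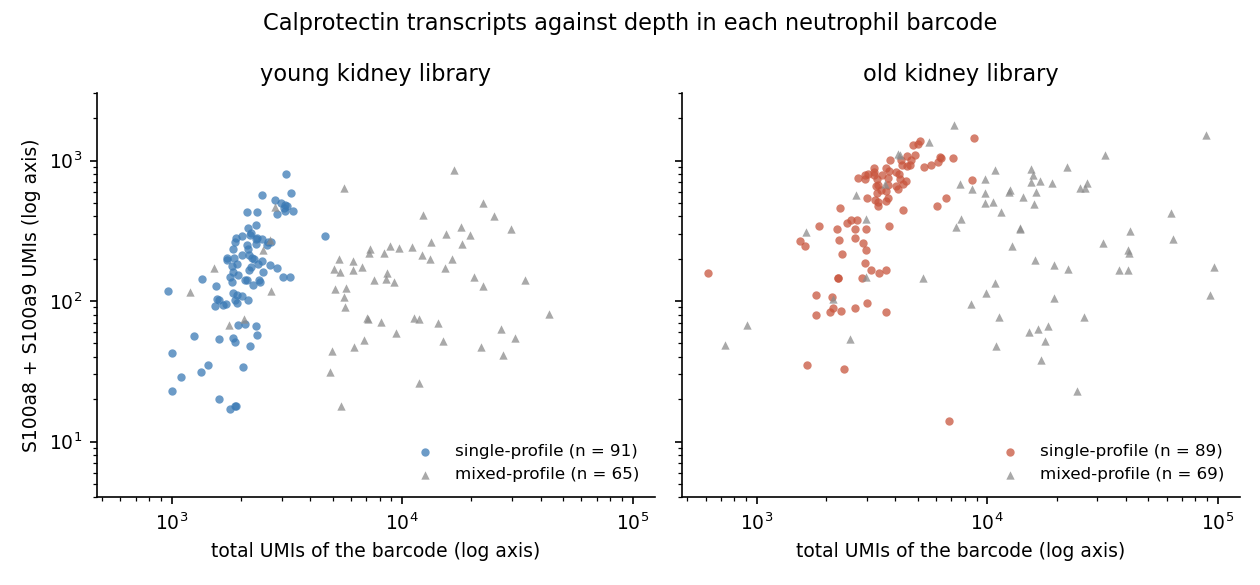
Summed *S100a8* and *S100a9* UMIs of each neutrophil barcode (y axis, log) against its total UMIs (x axis, log) in the young (left) and old (right) library. Coloured circles are single-profile barcodes (91 young, 89 old) and grey triangles mixed-profile barcodes (65 young, 69 old), most of which lie further to the right.

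Among transcripts of the sex chromosomes, UMIs of Y-linked genes (*Uty*, *Kdm5d*, *Eif2s3y*, *Ddx3y*) without *Xist* were found in 67 young and 66 old neutrophils, *Xist* without Y-linked UMIs in 7 and 17, both in 13 and 19, and neither in 69 and 56. The labels give no sex, and the study's methods describe female mice, which the Y-linked UMIs in both libraries go against. The cause was not tested. Values within the Y-linked neutrophils are given beside the leading results.

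Genes known from neutrophils but not used in the rule were then checked. *Hdc*, which makes histamine, was at 1420.4 CPM (1259 to 1597) in young and 1463 CPM (1334 to 1600.3) in old single-profile neutrophils. CPM here is a gene's UMIs per 1000000 UMIs, both summed over the cells of a class in a library, and its 95% interval is exact Poisson. In monocytes (at least 5 UMIs of *Lyz2*, with *Csf1r*, and without *C1qa* and *C1qb*) *Hdc* was at 17.0 and 6.16 CPM. *Trem1*, an amplifier of inflammatory signals, was at 857 and 841 CPM in single-profile neutrophils and at 51.0 and 81.0 CPM in monocytes. *Il1r2*, the decoy receptor for IL-1, was at 888 and 1044 CPM against 40.0 and 23.2, and the gelatinase gene *Mmp9* at 1314 and 1133 CPM against 7.13 and 0.474. These 4 genes were thus above monocytes in both libraries. Another gene of the same list, *Ifitm6*, was lower than in monocytes, at 112 and 179 CPM against 475 and 400.4. *Ly6g*, the classical surface marker, was sparse, with 8 UMIs over all young and 44 over all old neutrophils.

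Among listed genes with at least 30 UMIs, 70 of 154 were at least 2-fold higher in single-profile neutrophils than in monocytes in both libraries and 6 were at least 2-fold lower. Over all genes with that depth the shares were 23.9% higher and 10.0% lower. Against macrophages (at least 3 UMIs each of *C1qa* and *C1qb*) 86 of the 154 were higher and 5 lower, where 34.1% and 8.54% of all genes were. The lower genes included *Cd74*, *Csf1r* and the Toll-like receptor chaperone *Unc93b1* in both comparisons. *Cd74* was part of a limit and *Csf1r* was required of monocytes, so their values against monocytes follow from the definitions. Over all neutrophils 38 of 232 listed genes were higher and 13 lower than in monocytes, beside 5.72% and 1.25% of all genes, and 73 were higher and 21 lower than in macrophages, beside 7.62% and 2.15%. The rule chose the cells by transcripts, so these counts are descriptions.

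Several granule genes of precursor cells were at or near 0. Over all neutrophils, the primary granule genes *Mpo* and *Elane* had 1 and 0 UMIs in the young library and none in the old, and the secondary granule gene *Camp* (cathelicidin) had no UMI in either. With 963848 young and 1697476 old UMIs behind them, a count of 0 allows up to 3 UMIs. *Ltf* (lactoferrin) had no UMI in young and 6 in old neutrophils. Other members were measured: the secondary granule list had 408 young and 978 old UMIs over all neutrophils and 166 and 492 in single-profile ones, most of them *Lcn2*, and the primary list had 27 and 42 UMIs over all and 1 and 2 in single-profile ones. Of the secondary list none of 4 measured genes passed 2-fold over all neutrophils. In single-profile ones 1 of 2 did, *Ltb4r1*, which encodes a leukotriene receptor and not a granule protein, while *Lcn2* did not. Detection of late granule genes varied by gene. *Mmp9* had a UMI in 84.6% of young and 87.6% of old single-profile neutrophils, and *Hp* (haptoglobin) in 89.0% and 92.1%. For *Mmp8* most of these cells had no UMI, and the detected share was 18.7% (young) and 41.6% (old). Of the 8 genes in the gelatinase and late granule list, 2 were at least 2-fold higher in old single-profile neutrophils and 0 were lower (median log2 ratio 0.10). *Lcn2*, which makes the iron-binding lipocalin 2, was at 771 CPM (653 to 904) in the young and 1327 CPM (1205 to 1459) in the old library, a log2 ratio of 0.78 (0.51 to 1.06), against 0.73 over all neutrophils. Cell cycle genes gave 12 young and 6 old UMIs over the whole list in single-profile neutrophils.

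The old library was then compared with the young one, gene by gene, with a log2 ratio of at least 1 or at most -1 (2-fold) counted as higher or lower. Over all neutrophils 127 of 3815 genes with at least 100 UMIs were higher in the old library (3.33%) and 81 were lower (2.12%). In single-profile neutrophils 35 of 726 genes were higher (4.82%) and 23 lower (3.17%). The median log2 ratio was -0.13 over all and -0.10 in single-profile neutrophils. Leaving *S100a8* and *S100a9* out of the total moved the latter to -0.0012 and gave 38 higher and 14 lower genes. Listed genes were read from 30 UMIs, where 3.41% of 7411 genes were higher and 5.02% lower over all neutrophils, and 4.86% of 2119 genes were higher and 7.13% lower in single-profile neutrophils.

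Of the gene lists, the interferon-gamma-induced one had the highest median, 2.30 over 12 genes in all neutrophils and 2.67 over 6 in single-profile ones. The list names do not tell the interferons apart, and which of them acted was not tested. The type I list had a median of 0.63 over 22 genes in all neutrophils, with 9 higher, and 9 of 12 were higher in single-profile ones. Over all neutrophils 16 of 34 genes of the 2 interferon lists were higher in the old library, 1 was lower, and the median log2 ratio was 0.83. In single-profile neutrophils 13 of 18 were higher, none was lower, and the median was 1.53. By contrast, 4 of 20 neutrophil identity genes were higher over all neutrophils (median 0.16) and 3 of 18 in single-profile ones (0.17), with none lower. For the NADPH oxidase no gene of 7 passed 2-fold over all neutrophils (median -0.088) and none of 5 in single-profile neutrophils (-0.27).

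**Figure D3:**
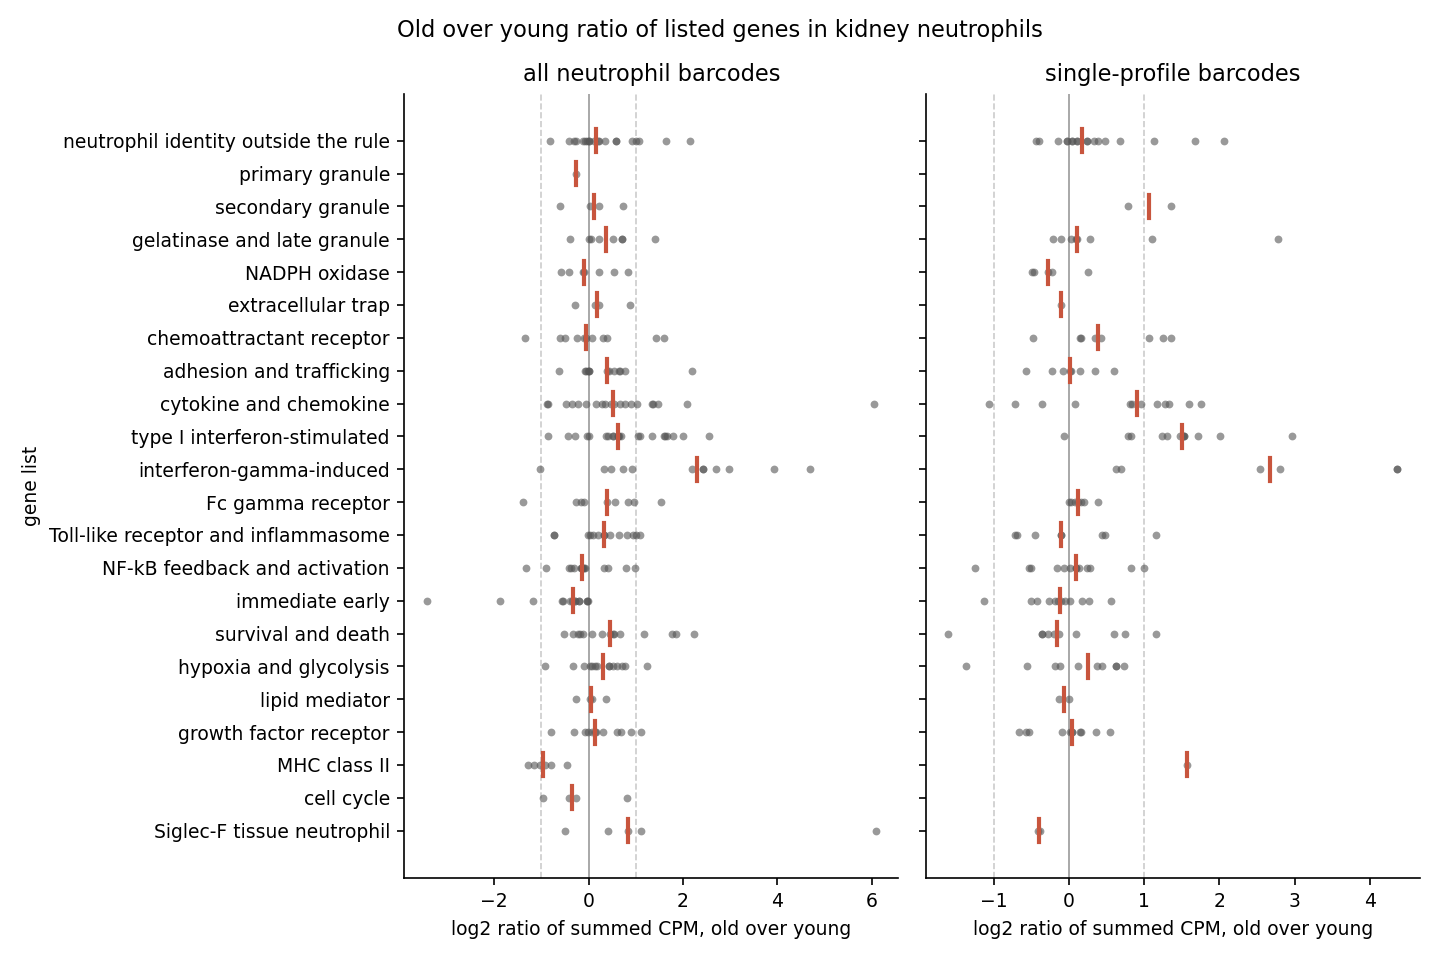
Log2 ratio of summed CPM, old over young (x axis), of each listed gene with at least 30 UMIs (grey points) by gene list (y axis), over all neutrophils (left) and single-profile neutrophils (right). Red bars are medians and dashed lines mark 2-fold. The interferon-gamma-induced list has the rightmost median in the left panel, 2.30, and in the right panel, 2.67.

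Interferons act on promoters through transcription factors that their receptors activate. Type I interferon acts mainly through the interferon-stimulated response element, and interferon-gamma through the gamma-activated sequence. The products of the induced genes block viral replication, attack vacuoles of intracellular pathogens or, as with PD-L1, restrain T cells.

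*Gbp2*, a guanylate-binding GTPase, had the highest log2 ratio among genes with at least 100 UMIs in single-profile neutrophils. It had 4 UMIs in the young library, or 20.3 CPM (5.53 to 52.0), and 136 UMIs in the old library, or 419 CPM (351 to 495). The log2 ratio was 4.37 (2.98 to 6.26), where the interval comes from the exact binomial distribution of the 2 sums. At least 1 *Gbp2* UMI was present in 4.40% of young and 41.6% of old single-profile neutrophils and in 11.9% and 16.8% of T cells, which were deeper, and 1 old barcode gave 27.2% of the old UMIs. After each cell was thinned to 1000 UMIs, which left out 1 cell per library, the shares were 1.11% and 19.3%. Over all neutrophils *Gbp2* was at 10.4 and 159 CPM, a log2 ratio of 3.94 (3.04 to 5.02). Within Y-linked neutrophils without *Xist* the ratio was 3.65.

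*Rsad2*, which encodes the antiviral enzyme viperin, had 20 young and 257 old UMIs in single-profile neutrophils. Its levels were 101 CPM (62.0 to 157) and 791 CPM (698 to 894), a log2 ratio of 2.96 (2.31 to 3.70). The share of cells with a UMI was 11.0% in young and 53.9% in old single-profile neutrophils, and 4.44% and 36.4% after thinning. In T cells, which were deeper (median 4950 young and 5119 old UMIs), the share was 1.06% and 0.790%. Over all neutrophils the log2 ratio of *Rsad2* was 2.55, and within Y-linked neutrophils without *Xist* it was 3.26. Both genes were detected together in 1 of 91 young and 27 of 89 old single-profile neutrophils, and neither was detected in 78 and 31.

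Other interferon-gamma-induced genes were measured on fewer UMIs. The immunity-related GTPase gene *Igtp* had 5 young and 48 old UMIs in single-profile neutrophils, a log2 ratio of 2.54 (1.22 to 4.23), and *Irgm1* had 1 and 34, a ratio of 4.37 (1.79 to 9.71). *Cd274*, which encodes PD-L1, had 6 and 69 UMIs, or 30.4 and 212 CPM, with a ratio of 2.80 (1.61 to 4.30). *Irf1*, a transcription factor of the interferon response, stayed under 2-fold with 218 and 351 CPM. *Ciita*, the regulator of MHC class II, was lower over all neutrophils, with 63 young and 54 old UMIs, and had 0 and 1 UMIs in single-profile ones. *Iigp1* had 136 old UMIs and none in the young library, but 1 barcode held 67.6% of them and single-profile neutrophils held 2.

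Among type I interferon-stimulated genes, *Isg15*, a ubiquitin-like modifier, was already at 563 CPM (463 to 678) in young single-profile neutrophils and at 998 CPM (892 to 1112) in old ones. Its ratio of 0.83 (0.51 to 1.15) was below 2-fold. *Ifitm3*, a barrier to viral entry, was at 416 and 1195 CPM (log2 ratio 1.52, 1.18 to 1.88), and *Ifi27l2a* at 370.3 and 1068 CPM (1.53, 1.16 to 1.91). Over all neutrophils these genes differed less, with ratios of 0.52 and 0.42. Monocytes had 3494 and 3154 CPM of *Ifitm3*, and the part of monocyte transcripts in the ratios over all neutrophils was not tested. *Oas3* and *Oasl1* of the oligoadenylate synthetase family had ratios of 1.31 and 1.48, and the transcription factor gene *Irf7* one of 1.24. *Zbp1*, a sensor of Z-form nucleic acids, had no UMI in young and 27 in old single-profile neutrophils. The young floor of 3 UMIs is 15.2 CPM, so *Zbp1*, at 83.1 CPM in the old library, was 5.46-fold above that floor. This value leaves out the counting error of the old UMIs. *Ifit1* had 5 and 27 UMIs, of which 1 old barcode gave 63.0%.

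Outside the lists, several further genes named by their rank in single-profile neutrophils are known to respond to interferon. *H2-K1*, a class I antigen-presenting molecule, was at 284 CPM (215 to 369) in the young and 1410.3 CPM (1284 to 1546) in the old library, a ratio of 2.31 (1.91 to 2.74). *Ifitm1* went from 457 to 1995 CPM (2.13, 1.81 to 2.46), *Rtp4* from 86.2 to 339 CPM (1.97, 1.23 to 2.80) and *Ly6e* from 112 to 391 CPM (1.81, 1.15 to 2.53). Over all neutrophils the ratios were 1.85 for *H2-K1*, 1.71 for *Ifitm1*, 1.34 for *Rtp4* and 0.44 for *Ly6e*. They were named for this difference, which is therefore a description.

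Per cell, the summed type I list had a median of 1163 CPM in young (quartiles 474 and 2383) and 4218 CPM in old single-profile neutrophils (1828 and 7987). The interferon-gamma list had medians of 429 and 1102 CPM. The groups overlapped: the highest young cell reached 23367 CPM in the type I list, and 79 of 91 young and 87 of 89 old cells had a UMI of it.

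**Figure D4:**
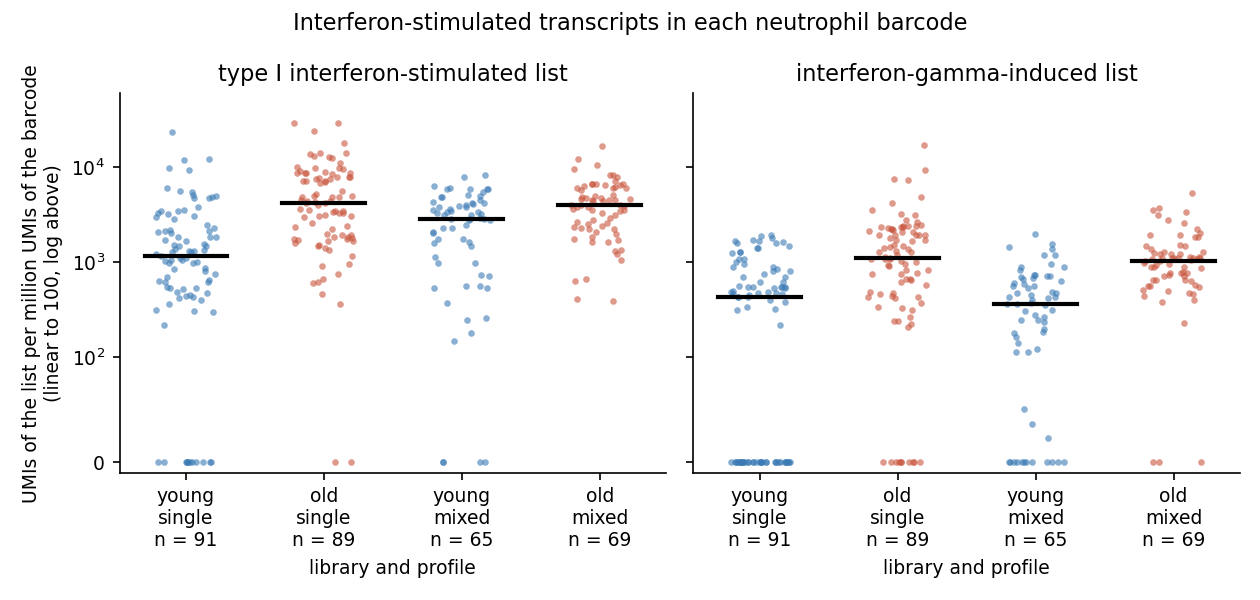
UMIs of the type I interferon-stimulated list (left) and the interferon-gamma-induced list (right) as CPM of each neutrophil barcode (y axis, linear to 100 and log above). Points are barcodes of the young and old library, split into single-profile and mixed-profile (x axis), and black bars are medians. In single-profile barcodes the medians were 1163 and 4218 CPM on the left and 429 and 1102 CPM on the right, with overlapping points.

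The promoters of 3 of these genes are shown because each holds a motif of this pathway, and they were picked after their values were seen. The windows are the 250 bases before the start of transcription in the RefSeq sequence of GRCm38.p6, which is not the MRL strain, and are printed 5′ to 3′ on the gene's strand. The response element was searched as GAAA, any 2 bases and GAAA, and the gamma-activated sequence as TTCNNNGAA, on both strands, and matches are in capitals. *Rsad2* is on the minus strand of chromosome 12 and its window is chr12:26456453-26456702, *Gbp2* is on the plus strand with chr3:142620413-142620662, and *Igtp* on the plus strand with chr11:58199306-58199555.
Rsad2: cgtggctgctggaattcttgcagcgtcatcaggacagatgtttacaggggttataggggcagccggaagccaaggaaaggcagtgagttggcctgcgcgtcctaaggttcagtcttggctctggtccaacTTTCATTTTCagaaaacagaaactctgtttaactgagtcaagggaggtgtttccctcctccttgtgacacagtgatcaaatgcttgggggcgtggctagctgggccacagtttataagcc
Gbp2: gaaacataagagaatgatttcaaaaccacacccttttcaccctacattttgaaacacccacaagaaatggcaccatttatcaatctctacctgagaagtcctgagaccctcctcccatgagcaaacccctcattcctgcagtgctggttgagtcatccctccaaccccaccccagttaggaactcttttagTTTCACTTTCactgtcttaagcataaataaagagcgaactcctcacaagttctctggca
Igtp: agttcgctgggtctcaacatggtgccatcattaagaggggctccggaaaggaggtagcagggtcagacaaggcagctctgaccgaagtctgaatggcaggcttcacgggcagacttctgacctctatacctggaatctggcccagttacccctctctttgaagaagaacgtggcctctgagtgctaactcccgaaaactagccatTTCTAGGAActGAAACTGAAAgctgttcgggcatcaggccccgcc

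In *Rsad2* the response element lies 120 bases before the start and in *Gbp2* 59 bases, both on the opposite strand. In *Igtp* it lies 34 bases before the start with a gamma-activated sequence at 45 bases, and the motifs do not overlap. Of all 32851 promoters, 978 (2.98%) held the response element and 2306 (7.02%) the gamma-activated sequence in this window. Of 23 promoters found for 20 of the 26 genes of the type I list, 9 (39.1%) held the response element and 3 the gamma-activated sequence. Of 13 promoters for 11 of the 14 interferon-gamma genes, 8 (61.5%) held the first and 6 (46.2%) the second. Of 16 promoters for the neutrophil identity genes none held the response element and 3 (18.8%) the gamma-activated sequence, and *Cd274* had neither motif in its window. A match describes the letters and is not a measured binding site.

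Other cell classes of the same libraries also differed in these genes. *Gbp2* was at 35.6 and 109 CPM in young and old monocytes, at 93.2 and 129.7 CPM in macrophages and at 0.508 and 132 CPM in PT cells (at least 3 UMIs each of *Slc34a1* and *Lrp2*). In the old library single-profile neutrophils had the highest *Gbp2* level of these classes, 419 CPM, but the other classes were not limited to single-profile barcodes. All old neutrophils were at 159 CPM, nearer to macrophages and PT cells. In the young library macrophages were highest, with a *Gbp2* UMI in 7.95% of them. The intervals of young single-profile neutrophils and monocytes overlapped, while all young neutrophils were lower, at 10.4 CPM. *Rsad2* was highest in single-profile neutrophils in both libraries, with 29.6 and 50.7 CPM in monocytes and 2.65 and 14.3 CPM in PT cells. *Cd274* was at 22.5 and 138 CPM in monocytes, with an interval that overlapped that of single-profile neutrophils in the young library and lay below it in the old. Differences between classes in the old over young ratio were not tested, since each rests on 1 library per age.

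Tubule transcripts were present in most neutrophil barcodes, and the PT list had set a limit of the single-profile set. *Kap*, a proximal tubule gene, had UMIs in 100% of young and 97.8% of old single-profile neutrophils, at 5484 and 1102 CPM. The PT list without *Kap* stood at 9.72% of its level in PT cells in young and 3.54% in old single-profile neutrophils. At that share and at the ratios seen in old PT cells, tubule RNA would carry 4.66 of the 419 CPM of *Gbp2* (1.11%), 0.0639% of *Rsad2*, 0.164% of *Cd274*, 4.71% of *Igtp* and 9.56% of *Irgm1* in the old library. Over all old neutrophils, with the list at 16.6% of its level in PT cells, the share was 13.8% for *Gbp2*, 0.767% for *Rsad2*, 0.947% for *Cd274*, 31.1% for *Igtp* and 49.96% for *Irgm1*. In young single-profile neutrophils it was 0.243% for *Gbp2* and 49.4% for *Irgm1*. RNA from cell types other than PT cells was not estimated.

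**Figure D5:**
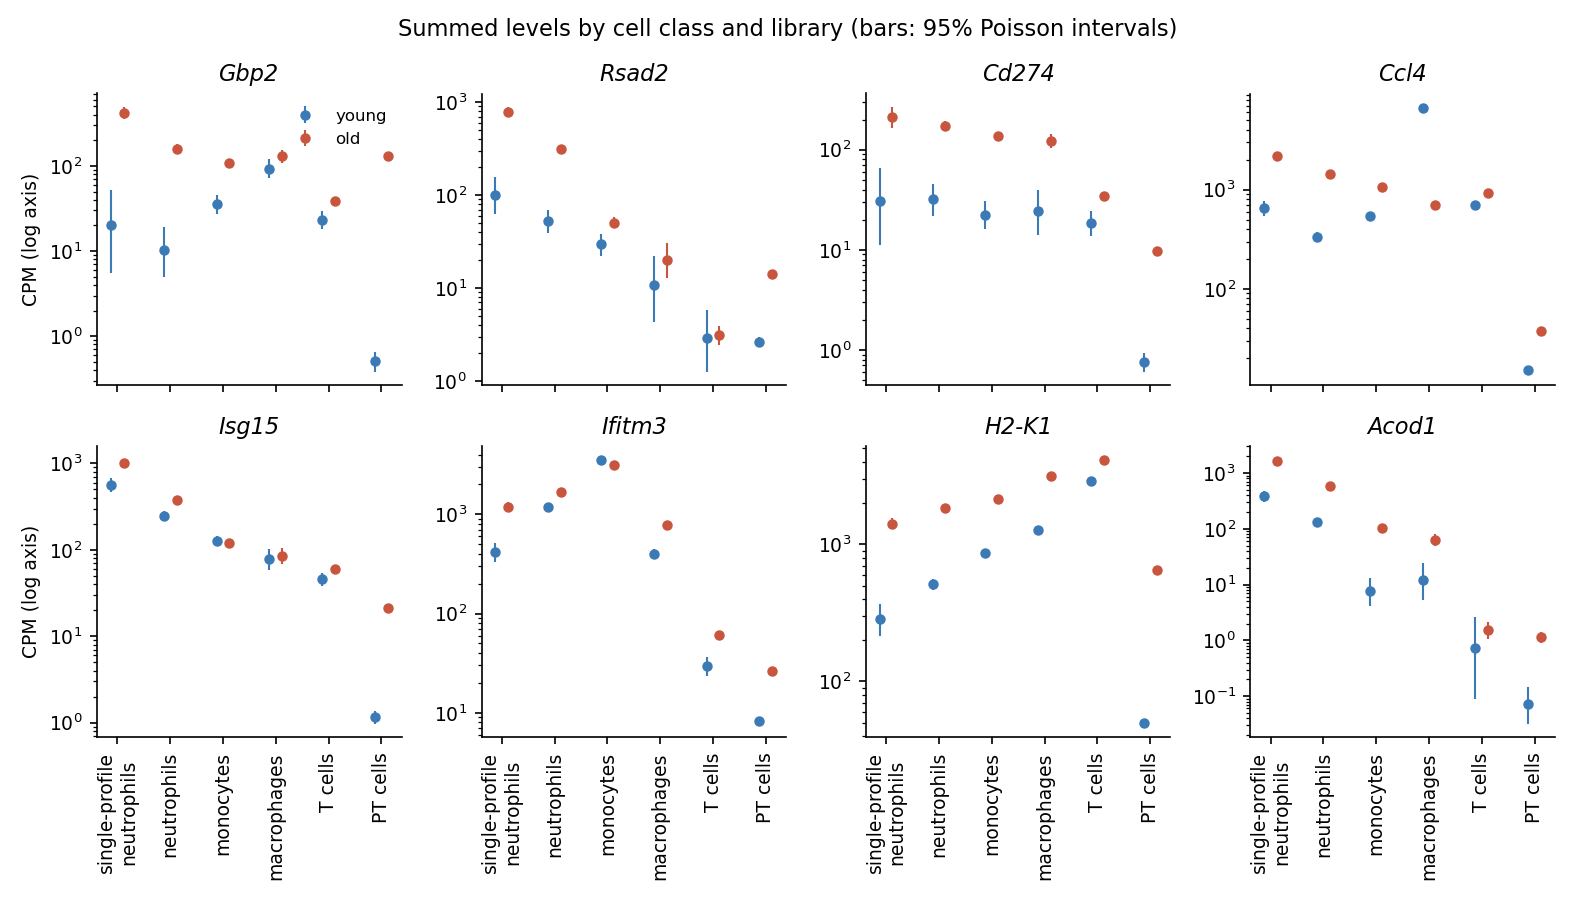
CPM (y axis, log) of 8 genes in 6 cell classes (x axis) of the young (blue) and old (red) library, with 95% Poisson intervals as bars. All neutrophils include the single-profile ones. In the old library *Gbp2* and *Rsad2* are highest in single-profile neutrophils, at 419 and 791 CPM. Only neutrophils were split by profile.

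Chemokine and cytokine genes were the next group. Of 12 measured in single-profile neutrophils, 5 were higher in the old library, 1 was lower, and the median log2 ratio was 0.90. Over all neutrophils 6 of 20 were higher, none was lower, and the median was 0.51. *Ccl4*, which encodes a chemokine for monocytes and T cells, was at 649 CPM (542 to 772) in young and 2199 CPM (2040.2 to 2366) in old single-profile neutrophils, a ratio of 1.76 (1.49 to 2.04), with a UMI in 25.3% and 39.3% of cells. Its relative *Ccl3* was at 705 and 1777 CPM, a ratio of 1.33 (1.06 to 1.61). Over all neutrophils the ratios were 2.09 for *Ccl4* and 1.03 for *Ccl3*. In macrophages both genes were higher in the young library, with 6653 and 693 CPM of *Ccl4*.

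The neutrophil attractant *Cxcl2* was at 5316 and 10359 CPM in single-profile neutrophils, and its ratio of 0.96 (0.86 to 1.06) fell just short of 2-fold. *Il1b*, which encodes IL-1β, was found in every single-profile neutrophil, at 8593 CPM (8189 to 9012) and 9065 CPM (8741 to 9399). The ratio was 0.077 (-0.0096 to 0.16), so a difference in *Il1b* was not detectable at this depth. *Il1rn*, the IL-1 receptor antagonist, was at 315 and 708 CPM (1.17, 0.76 to 1.60), with 18.3% of the old UMIs in 1 barcode. *Tnf* had 13 and 52 UMIs, a ratio of 1.28 (0.38 to 2.28), and *Ccl6* was the gene that was lower, at 1791 and 856 CPM (-1.06, -1.30 to -0.83). *Il10*, the regulatory cytokine, had 117 old UMIs over all neutrophils, none of them in a single-profile barcode.

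*Acod1* makes itaconate, a metabolite of activated myeloid cells. It was at 386 CPM (304 to 483) in young and 1617 CPM (1481 to 1761) in old single-profile neutrophils, a ratio of 2.07 (1.72 to 2.43), and at 133 and 586 CPM over all neutrophils (2.14, 1.88 to 2.42). A UMI was found in 27.5% and 80.9% of single-profile cells, 20% and 55.7% after thinning, and in 0.424% and 0.191% of T cells. Monocytes had 7.67 and 105 CPM. *Stfa2l1*, a stefin family protease inhibitor, was at 451 and 1441 CPM (1.67, 1.34 to 2.02), and its reads may be shared with near-identical copies. *Wfdc17* was at 178 and 1583 CPM (3.16, 2.66 to 3.69) and *Clec4n*, which encodes Dectin-2, at 86.2 and 394 CPM (2.19, 1.46 to 3.02), both named for their rank, and over all neutrophils their ratios were 2.50 and 2.39. *Upp1*, a uridine phosphorylase, had 2 young and 82 old UMIs in single-profile neutrophils and 8 and 228 over all.

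Of 8 chemoattractant receptor genes 3 were higher in old single-profile neutrophils (median 0.39), and of 11 over all neutrophils 2 were higher and 1 lower (median -0.058). The formyl peptide receptor genes *Fpr1* and *Fpr2* were at 65.9 and 152 CPM in young and 157 and 317 CPM in old single-profile neutrophils, with ratios of 1.25 (0.35 to 2.25) and 1.06 (0.46 to 1.70). The leukotriene B4 receptor gene *Ltb4r1* had 9 and 38 UMIs, a ratio of 1.36 (0.28 to 2.59), but -0.62 over all neutrophils. *Ccr1* (0.15, -0.067 to 0.36), the complement receptor gene *C5ar1* (0.35, 0.00096 to 0.71) and *Cxcr4* (0.16, -0.22 to 0.54) stayed within 2-fold. *Ccr2* was lower over all neutrophils (-1.35), but as a monocyte marker it had set a limit and had no UMI in single-profile ones.

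Adhesion genes showed no gene past 2-fold in single-profile neutrophils, of 8 measured (median 0.020), and 1 of 13 over all neutrophils. The β2 integrin gene *Itgb2* was at 339.9 and 376 CPM in single-profile neutrophils (0.14, -0.30 to 0.60). The higher gene was *Pecam1*, also an endothelial marker, with 18 and 145 UMIs over all and 0 and 1 in single-profile neutrophils. Of the subunits of integrin α4β7, *Itga4* had 64 and 71 UMIs (-0.57, -1.08 to -0.06) and *Itgb7* 4 and 13 (0.98, -0.71 to 3.05) in single-profile neutrophils. *Areg*, which encodes amphiregulin, had 1 and 0 UMIs there.

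Of the measured oxidase genes, and of the 4 extracellular trap genes over all neutrophils and 1 in single-profile ones, none passed 2-fold. *Cyba* (p22phox) was at 1654 and 1367 CPM in single-profile neutrophils (-0.27, -0.48 to -0.064). *Cybb*, the catalytic subunit, had only 9 and 9 UMIs in single-profile neutrophils against 523 and 1644 over all. *Padi4*, the enzyme that citrullinates histones before traps form, had 13 and 25 UMIs over all neutrophils, 13.5 and 14.7 CPM, and 7 and 9 in single-profile ones. *Dnase1l3*, a nuclease that clears chromatin, had no UMI.

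Fc gamma receptor genes differed between the sets of barcodes. *Fcgr4*, an activating receptor for IgG immune complexes, was at 70.6 and 204 CPM over all neutrophils (1.53, 1.15 to 1.93), but at 122 and 135 CPM in single-profile ones (0.15, -0.59 to 0.94). The inhibitory *Fcgr2b* was lower over all neutrophils (-1.40) and had 4 and 6 UMIs in single-profile ones. *Fcgr3* (0.085, -0.30 to 0.48) and the common signalling chain *Fcer1g* (0.12, -0.041 to 0.29) were measured on more UMIs and lay within 2-fold in both sets. These receptors are also expressed by monocytes and macrophages. Markers of both cell types passed 2 UMIs in a larger share of old barcodes, but that limit is not scaled to depth. Scaled to the UMIs of all neutrophils, monocyte markers were higher in old barcodes (987 CPM young, 1153 CPM old). Macrophage markers were lower by that measure (1302 CPM young, 906 CPM old). The part of either cell type in the result was not tested.

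Sensors and activation genes were mostly within 2-fold. Of 8 Toll-like receptor and inflammasome genes in single-profile neutrophils 1 was higher, *Casp4* of the noncanonical inflammasome (76.1 and 169 CPM, log2 1.15, 0.31 to 2.08). *Nlrp3* was at 649 and 403 CPM (-0.69, -1.05 to -0.32), and *Tlr9* had no UMI in either library. Of 13 genes of the NF-κB list, *Ier3* was higher, just past 2-fold, at 223 and 446 CPM, and the costimulatory *Cd80* lower (-1.25, -2.20 to -0.33), while the inhibitor *Nfkbia* was at 3642 and 3683 CPM (0.016, -0.12 to 0.15). In the immediate early list *Fosb* was lower in single-profile neutrophils (685 and 314 CPM, log2 -1.12, -1.51 to -0.74) and over all (-1.19, -1.34 to -1.03). The heat shock genes *Hspa1a* and *Hspa1b* were lower over all neutrophils, with 82 and 55 UMIs in the young library and 39 and 9 in the old one.

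Of 15 survival and death genes 4 were higher over all old neutrophils (median 0.45), and of 10 in single-profile ones 1 was higher and 1 lower (median -0.16). The *Bcl2a1* genes encode the antiapoptotic protein A1. *Bcl2a1b* was at 116 and 418 CPM over all neutrophils (1.85, 1.56 to 2.15) and at 137 and 305 CPM in single-profile ones (1.15, 0.53 to 1.83). Its copies *Bcl2a1a* and *Bcl2a1d* are nearly identical, so the split of reads between them is uncertain. *Mcl1*, on which neutrophils depend for survival, was at 3698 and 3233 CPM (-0.19, -0.33 to -0.056). *Fas*, the gene of the *lpr* allele, was at 81.2 and 73.9 CPM (-0.14, -1.11 to 0.88).

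Receptors for growth factors and interferons had no gene past 2-fold of 11 in single-profile neutrophils (median 0.039), and 1 of 12 was higher over all neutrophils (median 0.14). *Csf2rb*, the shared chain for GM-CSF and IL-3, was at 269 and 271 CPM (0.011, -0.50 to 0.53), *Ifngr1* at 132 and 135 CPM (0.039, -0.69 to 0.80) and *Ifnar1* at 55.8 and 61.6 CPM (0.14, -0.99 to 1.35). Among hypoxia and glycolysis genes *Pkm* was at 528 and 878 CPM (0.73, 0.41 to 1.07), and *Ndrg1*, which tubule cells also express, was the 1 gene of 10 that was lower (-1.37, -1.88 to -0.87). Of a list from Siglec-F-bearing tissue neutrophils, *Siglecf* had 3 and 5 UMIs over all neutrophils. *Gpnmb* had 1 and 120 UMIs over all neutrophils, of which 1 barcode held 92.5%.

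Genes lower in old single-profile neutrophils included tubule and neutrophil transcripts. *Kap*, *Fxyd2* and *Miox* are made by the tubule, whose list set a limit, and their ratios ran from -2.31 to -1.70. *Asprv1*, an aspartic protease gene with few UMIs in monocytes (16.4 and 0.237 CPM), was at 1365 CPM (1206 to 1538) in young and 536 CPM (459 to 622) in old single-profile neutrophils. Its ratio was -1.35 (-1.63 to -1.07), and -1.62 (-1.84 to -1.40) over all neutrophils, with a UMI in 50% of young and 25% of old single-profile cells after thinning. It was named for this rank.

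Over all neutrophils the genes at both ends of the ratio included many that are known from other cell types. The immunoglobulin genes *Igha*, *Igkc* and *Ighm* had 1, 627 and 469 UMIs in young and 6876, 52794 and 6518 in old neutrophil barcodes, and 1 old barcode held 98.5%, 83.4% and 96.9% of the old UMIs. In single-profile neutrophils they had 0, 4 and 1 young and 9, 81 and 10 old UMIs. The monocyte-associated genes *F10* and *Cd300e*, with 393 and 201 old UMIs, had 10 and 2 in single-profile neutrophils. Among the lower genes, the B cell genes *Ms4a1*, *Cd79b* and *Ebf1* had 112, 110 and 126 young UMIs and none in single-profile neutrophils, and the hemoglobin gene *Hbb-bs*, outside these ranks, had 2558 young UMIs of which 1 barcode held 99.4%.

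Neutrophils also varied among themselves within a library. After thinning to 1000 UMIs, the variance of *Cxcl2* counts over single-profile cells was 9.27 times its mean in the young and 18.5 times in the old library, where counting alone gives 1. *Ccl4* had 6.31 and 13.2, *Ccl3* 3.14 and 9.37, and the inhibitor *Nfkbia* 5.84 and 5.14. *Cxcl2* was detected in 76.9% of young and 92.1% of old single-profile neutrophils and reached 66 and 178 UMIs in the highest cell. *Gbp2*, by the same measure, was at 0.989 in young and 5.12 in old cells. *Fth1*, the ferritin heavy chain gene, had 3.28 and 15.5, but 1 old barcode held 13.2% of its UMIs. Mitochondrial genes were also among the 15 most variable, with *mt-Co3* at rank 2 after *Cxcl2*, and *mt-Atp6*, *mt-Co1*, *mt-Cytb* and *mt-Co2* at ranks 5 to 8. The part of cell quality in this variation was not tested.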

How the data were processed

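The authors aligned reads to mm10 with Cell Ranger (3 per the labels, 3.1.0 per the file headers) and deposited raw UMI counts per gene and barcode, without normalization. Scrublet was run in Scanpy 1.11.5, tables and intervals were made with pandas 2.3.3 and SciPy 1.17.1, and NumPy 2.4.6 and Matplotlib 3.10.9 were used under Python 3.11.15. The neutrophils and the gene lists were chosen with earlier results of these data known. UMIs were summed per library and class, scaled to CPM and compared by log2 ratio without a test. Named genes were list members, the 15 at each end of the ratio among genes with at least 100 UMIs and a UMI in 20 cells, the 20 of highest CPM and the 15 most variable. Thinning used seed 7. A count of 0 was read as up to 3. The comparison was checked on counts simulated with counting error alone, so the check does not cover variation among cells or between libraries. Positions are those of RefSeq GRCm38.p6. Alternatives changed the thresholds of the rule, the doublets, the totals, the weight of cells, the depth and the UMI minimum, and single-profile sets were added after the data were seen.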

Additional observations from a re-analysis of the deposited data

How the results depend on the processing

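The 2 libraries have no replicates, so no replicate could be left out, and no paired analysis was possible because there was 1 library per age and no test. *Gbp2*, *Rsad2*, *Cd274*, *Igtp* and *Acod1* had a log2 ratio above 1 under every alternative run, although some of them rested on under 30 UMIs after thinning. The young share of cells was 1.13% with at least 20 UMIs of both S100 genes, 1.07% with at most 1% PT list UMIs, 1.15% of the cells with Y-linked and no *Xist* UMIs, and 0.796% for single-profile neutrophils, for which the old share was 0.870%. Genes higher and lower in the old library were 127 and 81 of 3815 as reported. With Y-linked and no *Xist* UMIs they were 75 and 41 of 2128. They were 24 and 12 of 470 after thinning to 1000 UMIs, and 14 and 9 of 239 after thinning to 500. From 200 UMIs per gene they were 73 and 36 of 2055. The lower genes alone were 190 of 3074 without doublets and 269 of 3815 by the mean of each cell's CPM. From 50 UMIs per gene they were 208 of 5846. In single-profile neutrophils the counts were 35 and 23 of 726, and 12 and 7 of 243 thinned. They were 38 and 14 of 726 without the S100 genes in the total, and 30 and 14 of 657 without abundant and PT genes. By the mean CPM they were 33 and 22 of 726, and with Y-linked and no *Xist* UMIs 15 and 8 of 284. Interferon genes higher were 8 of 12 thinned to 1000 UMIs and 3 of 5 thinned to 500, and in single-profile neutrophils 5 of 9 thinned and 6 of 10 with Y-linked and no *Xist* UMIs; fewer genes were measured there. The listed genes above monocytes were 38 of 232 over all neutrophils, beside 5.72% of all genes. In single-profile neutrophils they were 70 of 154, beside 23.9% of all genes. Among single genes, *Ighm* turned to -2.47 with Y-linked and no *Xist* UMIs, and *Trf* to 0.42 in single-profile neutrophils, 0.52 without the S100 genes, 0.38 without abundant and PT genes and 0.30 by the mean CPM; the cause was not tested. Depth limits genes under 30 UMIs, which were left out of the list counts. The values given above for *Itgb7* and *Zbp1* in single-profile neutrophils rest on fewer UMIs than that.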

Other observations

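Most barcodes left out of the neutrophils carried *Cd3d*, a component of the T cell receptor complex, and this selection was examined after the data were seen. Of the barcodes that met the other terms of the rule, 36 young and 29 old were left out for *Cd3d* without *Cd3e*, *C1qa* or *Mcpt8*. In 31 of the 36 and 27 of the 29 none of *Cd3e*, *Cd3g*, *Trac*, *Trbc2* and *Cd247* had a UMI. These 31 and 27 had a median of 1 *Cd3d* UMI and at most 4, a median depth of 2940.0 young and 4621 old UMIs, and a median of 260.0 and 696 summed UMIs of *S100a8* and *S100a9*. T cells had a median of 5 *Cd3d* UMIs in both libraries, and *Cd3d* had a UMI in 1.80% of young and 10.2% of old PT cells, which were deeper. A further 16 old and no young barcodes had both *Cd3d* and *Cd3e*, with a median of 18435 UMIs.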
